A study of Mus musculus with 46 samples.

Results

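Propionylation of lysine 16 of histone H4 (H4K16pr) was mapped in the livers of 2 wild-type (WT) mice and 2 PA mice, by native ChIP-seq with the Thermo Fisher antibody. These 4 libraries were taken by their antibody and genotype labels from the 46 samples of the series, of which 38 have a peak list. All mice were females of 11 weeks on the FVB background and were kept on standard chow. PA mice, a model of propionic acidemia, are labelled as hypomorphic Pcca-/- (A138T), where hypomorphic means reduced rather than absent function, and the WT mice carry no such allele. Nuclei of frozen liver were digested with micrococcal nuclease, without crosslinking, and every library is labelled as liver preparation B. The 4 lists held 38617 to 49903 peaks, each given by its position alone, and the read depth behind them is not known. A place without a peak is therefore described as not listed, and never as unmarked. Whole liver was used, so a mark lost from some cells and a weaker mark in every cell cannot be told apart.

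Propionyl-CoA carboxylase, whose alpha subunit is the product of Pcca, works in mitochondria and turns propionyl-CoA from branched-chain amino acids and odd-chain fatty acids into methylmalonyl-CoA. Propionyl-CoA is the donor for lysine propionylation, which some histone acetyltransferases can write and some deacetylases remove. Lysine 16 lies in the H4 tail, where its acetylation is known to loosen the packing of nucleosomes. Acetylated, propionylated and butyrylated forms of H4 are usually found at the starts and enhancers of active genes.

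The level of H4K16pr at a gene was the number of peak-covered bases within 2.5 kb of the gene start on each side, a window of 5000 bp. A gene or region was counted as higher or lower where the lowest liver of one genotype exceeded the highest liver of the other by a gap of at least 500 bp. The promoters below, 250 bases upstream of the RefSeq start on GRCm38.p6 and read on the gene's own strand, belong to genes with the largest gaps described further on. RefSeq promoters were matched for 7 of the 11 genes named as higher and 11 of the 12 named as lower. Capitals mark exact matches, on either strand, to the TATA box TATAAA, the CCAAT box CCAAT, the GC box GGGCGG, the E-box CACGTG, the cAMP response element TGACGTCA, the forkhead letters TGTTTAC, the C/EBP letters TTGCNNAA and the nuclear receptor letters AGGTCA. Overlapping matches run together, as for a pair of GC boxes in Phospho1. The first 4 genes carried more H4K16pr in PA.
Phospho1: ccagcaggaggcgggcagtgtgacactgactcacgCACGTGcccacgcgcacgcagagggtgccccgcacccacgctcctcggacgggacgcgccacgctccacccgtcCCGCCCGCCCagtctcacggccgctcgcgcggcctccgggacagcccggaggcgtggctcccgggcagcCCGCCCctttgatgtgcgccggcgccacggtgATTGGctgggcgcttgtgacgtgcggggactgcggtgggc
Cfap44: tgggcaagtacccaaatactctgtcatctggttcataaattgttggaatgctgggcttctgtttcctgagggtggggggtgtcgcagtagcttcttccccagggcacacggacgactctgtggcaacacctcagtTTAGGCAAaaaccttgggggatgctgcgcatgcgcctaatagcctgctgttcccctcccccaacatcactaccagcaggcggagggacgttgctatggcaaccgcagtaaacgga
Habp4: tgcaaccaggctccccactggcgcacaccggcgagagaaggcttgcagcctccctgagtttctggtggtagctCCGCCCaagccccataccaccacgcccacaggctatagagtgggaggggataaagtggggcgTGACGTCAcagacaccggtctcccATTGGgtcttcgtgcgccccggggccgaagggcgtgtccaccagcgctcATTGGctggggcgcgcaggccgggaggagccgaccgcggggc
H4c3: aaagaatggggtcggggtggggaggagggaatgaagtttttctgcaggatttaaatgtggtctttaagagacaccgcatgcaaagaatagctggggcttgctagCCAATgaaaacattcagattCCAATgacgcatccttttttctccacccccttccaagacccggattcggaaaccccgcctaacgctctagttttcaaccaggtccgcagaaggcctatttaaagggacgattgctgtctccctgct
The other 4 carried less H4K16pr in PA.
Cyp3a44: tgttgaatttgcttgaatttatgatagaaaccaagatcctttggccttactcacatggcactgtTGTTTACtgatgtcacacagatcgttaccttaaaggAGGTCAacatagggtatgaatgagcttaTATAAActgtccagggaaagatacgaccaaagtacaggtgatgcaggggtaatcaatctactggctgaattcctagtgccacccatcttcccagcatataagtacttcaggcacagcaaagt
Slco1a1: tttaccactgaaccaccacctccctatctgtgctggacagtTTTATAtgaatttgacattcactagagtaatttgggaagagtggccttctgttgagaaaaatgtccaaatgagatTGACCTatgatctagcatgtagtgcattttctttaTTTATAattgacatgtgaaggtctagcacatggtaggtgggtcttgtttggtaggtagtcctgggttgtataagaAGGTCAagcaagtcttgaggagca
Sult5a1: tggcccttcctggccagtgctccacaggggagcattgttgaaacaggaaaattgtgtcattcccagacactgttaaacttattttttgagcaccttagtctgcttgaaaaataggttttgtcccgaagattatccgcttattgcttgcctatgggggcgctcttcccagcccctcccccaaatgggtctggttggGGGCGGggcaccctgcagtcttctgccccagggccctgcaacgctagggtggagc
Mup-ps16: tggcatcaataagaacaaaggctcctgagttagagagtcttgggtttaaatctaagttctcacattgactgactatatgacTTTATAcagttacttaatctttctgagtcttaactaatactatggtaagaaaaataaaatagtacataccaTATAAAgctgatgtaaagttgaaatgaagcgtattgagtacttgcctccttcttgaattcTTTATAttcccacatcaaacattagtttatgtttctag
Phospho1 held 34 CpG pairs in these 250 bases and Habp4 held 20, while Cfap44 and H4c3 held 9 each. Cyp3a44 held 2, Slco1a1 none, Sult5a1 5 and Mup-ps16 1. In CpG pairs, the median was 16 over the 9987 tested genes with a listed start, 16 over the 1179 of them that were higher in PA, and 4.5 over the 64 that were lower. A TATA box match lay in 6.70% of all tested promoters, 7.29% of those higher and 12.5% of those lower. A GC box match lay in 58.6%, 59.5% and 32.8% of them. These are letters in a window and are not evidence that a factor bound there.

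The first question was how far H4K16pr extended in each liver. WT replicates 1 and 2 had 38617 and 41686 peaks, and PA replicates 1 and 2 had 49903 and 45854, 1.19-fold more on average. Peaks covered 78.7 and 101.5 Mb in WT and 124.6 and 106.8 Mb in PA, 1.28-fold more (log2 ratio 0.37). Both PA livers exceeded both WT livers in these measures, and the exact permutation test (two-sided) gave p = 0.333, the lowest that 2 livers against 2 allow. WT replicate 1 stood apart as the smallest list. It lowers the WT mean, and the covered length of WT replicate 2 was close to that of PA replicate 2. The typical width did not separate the genotypes, since the median was 1415 and 1639 bp in WT and 1599 and 1573 bp in PA (exact p = 1). Peaks wider than 5 kb numbered 2794 and 4420 in WT and 5843 and 4653 in PA. WT replicate 2 overlapped both PA lists about as much as the lists of 1 genotype overlapped each other. The shared share of covered bases (Jaccard index) was 0.623 for the 2 WT livers and 0.658 for the 2 PA livers. It was 0.627 and 0.654 for WT replicate 2 with PA replicates 1 and 2, and 0.535 and 0.582 for WT replicate 1 with them.

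**Figure D1:**
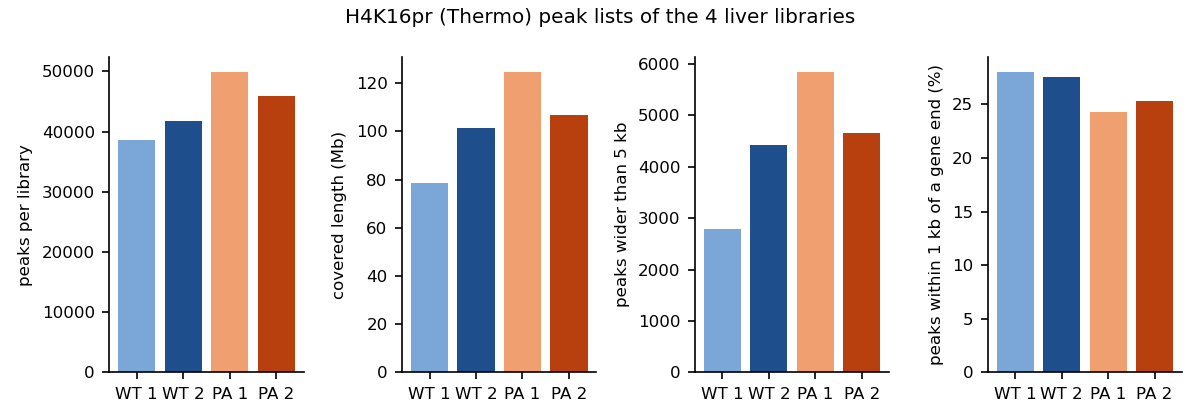
Bars give, for each of the 4 H4K16pr libraries, the number of peaks, the covered length in Mb, the number of peaks wider than 5 kb and the percentage of peaks within 1 kb of a gene end. WT replicate 1 has the smallest covered length (78.7 Mb), PA replicate 1 the largest (124.6 Mb), and both PA livers have a smaller share at gene ends.

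A smaller share of the PA peaks lay at gene ends. Of the WT lists 28.0% and 27.5% of peaks were within 1 kb of either end of a coding gene, and of the PA lists 24.3% and 25.3%. Their number was nonetheless higher in PA, at 12126 and 11594 against 10822 and 11480 in WT. Peaks inside genes made up 41.5% and 41.9% in WT and 43.8% and 42.9% in PA. Peaks outside genes made up 30.5% in both WT livers, and 31.9% and 31.8% in PA. The groups did not overlap in any of these shares (exact p = 0.333 for each). With the 38617 widest peaks kept in every library, which also removes the narrowest peaks of the longer lists, the share at gene ends was 28.0% and 29.1% in WT and 29.5% and 28.8% in PA. The groups then overlapped, and the mean was 0.57 percentage points higher in PA.

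The 4 lists merged into 62755 regions, of which 24748 were listed in all 4 livers. A further 3803 regions were listed in both PA livers and in neither WT liver (6.06%), and 741 in both WT livers and in neither PA liver (1.18%). These are called PA-only and WT-only regions here. With equal numbers of peaks per library the counts became 2309 and 1070. PA-only regions were short, with a median of 1200 bp, against 971 bp for WT-only regions and 3444 bp for regions in all 4 livers. They lay inside genes (51.3%) or outside them (44.5%), and 159 of them (4.18%) were within 1 kb of a gene start. At a gene start lay 39.0% of the longer regions in all 4 livers and 18.1% of all 62755 regions. Of all regions 47.8% lay inside genes and 34.1% outside them. Of the PA-only regions 37.1% were within 5 kb of a region listed in all 4 livers, close to the 39.6% of all regions. More than 50 kb from any lay 606 of the 3803, against 8222 of all 62755. PA-only regions of at least 3 kb numbered 91. Among WT-only regions 28 (3.78%) were at a gene start and 11 were at least 3 kb long.

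The longest PA-only region lay inside Cmip, 40875 bp from its start, at chr8:117297894-117305435. It covered 6778 bp in PA replicate 1 and 4171 bp in PA replicate 2. The next lay across the start of Cfap44, a cilium and flagellum protein, at chr16:44391806-44398988, with 7183 and 3927 bp. These were followed by regions inside Atp6v0e, a subunit of the vacuolar proton pump (6349 and 6882 bp), and Mad1l1, of the spindle checkpoint (6826 and 4033 bp). A region across the start of Lpl at chr8:68877847-68884575 covered 6729 and 5856 bp. Regions inside Plcl1 (5559 and 4937 bp), 1241 bp from Slc22a12, a urate transporter gene (5579 and 1143 bp), and 186149 bp from Foxo1 (5207 and 1250 bp) completed the 8 longest. The last pair were several times longer in PA replicate 1 than in PA replicate 2. Several genes held many PA-only regions, a choice made after their values were seen: Arhgap26 and Pde4d, a cyclic AMP phosphodiesterase, held 12 each and Foxp1 held 9. These genes are 774.7, 1302 and 597.4 kb long. Of all genes 1656 overlapped at least 1 PA-only region and 404 at least 1 WT-only region.

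The longest WT-only region lay outside genes, 23639 bp from Nkx1-1, at chr5:33457729-33465938, with 1839 bp in WT replicate 1 and 8210 bp in WT replicate 2. A region inside Cmah, the gene of the enzyme that makes N-glycolylneuraminic acid, at chr13:24373341-24380048 covered 500 and 6708 bp. Both rested mostly on WT replicate 2. The region at chr4:61805792-61811904, 4562 bp from the major urinary protein pseudogene Mup-ps16, covered 6113 and 5936 bp. Near Sec61g, at 78676 bp, a region covered 4124 and 5194 bp, and 1361 bp from Cyp3a16 a region covered 4647 and 1912 bp. The remaining 3 of the 8 longest lay near Zfp536, Aldh1a3 and Dis3l and covered between 956 and 4101 bp in a WT liver. Cmah, Cyp3a16 and Mup-ps16 also stand among the genes with narrower regions or lower starts described next.

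Regions listed in all 4 livers were mostly longer in PA. Their median covered length was 1997 and 2513 bp in WT and 3039 and 2624 bp in PA, the median difference was 494 bp, and 80.9% had the higher mean in PA. By the gap of 500 bp, 4186 regions were wider in PA (16.9%) and 315 were narrower (1.27%). When the libraries were forced to the same distribution of lengths by quantile normalization, the counts were 1763 wider (7.12%) and 1715 narrower (6.93%). That step sets the same lengths in every library, and with it the balance of the directions. No region passed limma with Benjamini-Hochberg adjustment (0.0% in each direction). The smallest adjusted p was 0.227, and 2856 regions were higher and 223 lower at an unadjusted p under 0.05. Of the wider regions 36.2% lay at a gene start, against 15.9% of the narrower ones and 39.0% of all regions listed in all 4 livers.

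The region with the largest gap toward PA lay across the start of Egln3, which encodes a prolyl hydroxylase of hypoxia-inducible factors. It covered 6177 and 9770 bp in WT and 18150 and 18136 bp in PA, at chr12:54188210-54207179. A region inside Tenm3 covered 9099 and 13761 bp in WT and 25980 and 20772 bp in PA. A region inside Egfr, the epidermal growth factor receptor gene, covered 5293 and 8381 bp in WT and 17761 and 14052 bp in PA. In each of them the shorter PA liver exceeded the longer WT liver by more than 5 kb. At Slc7a2, a transporter of arginine and other cationic amino acids, the region at the start covered 8619 and 8495 bp in WT and 14904 and 14446 bp in PA. Regions inside Rab11fip4, near Alpk2, near Rad23b and across Tmed7 and Eif1a completed the 8, with mean differences of 6645 to 8511 bp.

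The largest gap in the other direction lay across Mup-ps16 at chr4:61788556-61805248 and covered 13809 and 16693 bp in WT and 3497 and 3959 bp in PA. In the next, inside Cmah, 13493 and 19547 bp were covered in WT and 5403 and 6155 bp in PA. A second Cmah region, across the gene start, covered 14849 and 21524 bp in WT and 8951 and 10380 bp in PA. Cmah thus held both WT-only and narrower regions and no wider one. The region at Cyp3a44 covered 15315 and 17455 bp in WT and 7102 and 10045 bp in PA. The region at Sult5a1 covered 8976 and 8782 bp in WT and 2345 and 4707 bp in PA. Slco1a1 (6234 and 6941 against 1453 and 2662 bp), Tmem26 (4953 and 4512 against 1103 and 500 bp) and a region 27158 bp from Cdk15 (12330 and 12942 against 3244 and 8365 bp) were the others. These adjusted p-values lay between 0.227 and 0.272 in limma, above the threshold of 0.05.

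At gene starts, 12495 coding genes were covered by at least 1 base in 2 or more of the 4 livers and were tested. By the gap of 500 bp, 1485 genes were higher in PA (11.9%) and 78 were lower (0.624%), and the median difference over all tested genes was 428 bp. After quantile normalization the counts were 449 higher (3.59%) and 305 lower (2.44%). All 449 of the former were among the 1485, and 67 of the 78 lower genes stayed lower. No gene passed limma with Benjamini-Hochberg adjustment (0.0% in each direction). The smallest adjusted p was 0.356, and 1269 genes were higher and 63 lower at an unadjusted p under 0.05. With quantile normalization limma called 2 genes higher, Lpl among them (adjusted p = 0.0218), and Cyp3a44 lower (0.028). With the spread estimated over the 36 libraries of all 9 antibodies, which treats libraries of 1 liver as separate, 54 genes were called higher and 6 lower. A limma fit of the 20 libraries of preparation B took each liver preparation as a random effect (correlation 0.268). It called 35 genes higher and 5 lower, still with 2 livers a genotype. In 183 genes neither WT liver had a covered base and both PA livers did, and the reverse held for 41. Fully covered windows cannot increase, and 323 genes were at 5000 bp in all 4 livers.

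Pcca itself, the targeted gene, was widely covered in every liver. Peaks covered 3911 and 4231 bp in WT and 3587 and 3959 bp in PA, a difference of -298 bp ± 239 (SE; limma adjusted p = 0.567). The groups overlapped, and a peak list shows nothing of the allele, so this does not check the labels.

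Of the genes higher in PA, Lpl had the largest gap. Lpl encodes lipoprotein lipase, which frees fatty acids from circulating triglycerides and is low in adult liver. No base of its 5000 bp window was covered in either WT liver, and all 5000 bp were covered in both PA livers (difference 5000 bp ± 243, SE; adjusted p = 0.356). The livers of a genotype did not differ at Lpl, so limma took this SE from the spread of other genes. Relative to the start used, the Lpl peak ran from -2708 to 4020 bp in PA replicate 1 and from -2523 to 3332 bp in PA replicate 2. Lpl has no listed start, and the end used is that with more coverage over the libraries, as for Pde6c, Zfp516, Sctr and Lrrc69. Cfap44 had no covered base in WT, 5000 bp in PA replicate 1 and 2429 bp in PA replicate 2. Cd36, a fatty acid uptake receptor gene that was described as part of a list, had no covered base of its window in WT and 2072 and 2935 bp in PA. Within the 5000 bp windows of Lpl, Cfap44 and Cd36, H4K16pr was thus listed in both PA livers and in neither WT liver. Outside the Cd36 window WT peaks were also listed, from -7472 to -3427 bp of the start used in WT replicate 1. In WT replicate 2 a peak ran from -7402 to -6070 bp. A peak of each PA liver overlapped both of these.

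Phospho1, a phosphatase gene of phosphocholine and phosphoethanolamine, had 978 and 2363 bp in WT and 5000 bp in both PA livers. Abcc4, which encodes a basolateral exporter of bile acids and cyclic nucleotides, had 0 and 1206 bp in WT and 3657 and 3408 bp in PA. Aqp1, a water channel gene, had 0 bp of its window in both WT livers and 2161 and 2705 bp in PA. Over its whole gene it had 633 and 1834 bp in WT and 3735 and 4214 bp in PA. In the windows of Phospho1, Abcc4 and Aqp1 the groups were apart by more than 2 kb. H4c3, which encodes histone H4 itself, had 939 and 1638 bp in WT and 4230 and 3843 bp in PA, and its window overlaps that of H1f6, 2647 bp away. Sctr, the secretin receptor gene, had 2543 and 2743 bp in WT and 5000 bp in both PA livers. Pde6c, Zfp516, Habp4 and Tuba8 had WT values of 0 to 2233 bp and PA values of 2652 to 4803 bp. Over the whole gene the groups overlapped at Habp4, with 9207 and 11053 bp in WT and 12097 and 10486 bp in PA. Adjusted p-values of the 11 named genes ran from 0.356 to 0.463, and 2 predicted genes with gaps as large were passed over.

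Of the genes lower in PA, Cyp3a44 had the largest gap. Cyp3a44, a cytochrome P450 gene with more expression in female than in male mouse liver, had 3250 and 3181 bp in WT and none in PA (-3216 bp ± 160, SE; adjusted p = 0.356). Slco1a1, an organic anion uptake transporter gene, had 5000 bp in both WT livers and 1453 and 2162 bp in PA (-3193 bp ± 373, SE; adjusted p = 0.407). Sult5a1, a sulfotransferase gene, had 4985 and 4627 bp in WT and 0 and 2179 bp in PA. The PA livers differed from each other there by 2179 bp, yet both lay below both WT livers. Mup-ps16 had 4818 and 5000 bp in WT and 2509 and 1911 bp in PA. Irf5, an interferon regulatory factor gene, had 3991 and 4360 bp in WT and 817 and 1928 bp in PA. Ugt3a1, a glycosyltransferase gene, had 4132 and 4617 bp in WT and 1886 and 2292 bp in PA. The 2 genotypes did not overlap at these 3 starts, as the choice by gap requires, and each PA liver kept part of the signal. Over the whole gene the genotypes overlapped at Ugt3a1, at 3477 and 3045 bp in WT and 2677 and 3247 bp in PA. Hgf, the hepatocyte growth factor gene, had 1411 and 1508 bp in WT and none in PA. Reck, a membrane inhibitor of metalloproteinases, had 2578 and 3184 bp in WT and 1127 and 1151 bp in PA. Lrrc69, Phf11d, Fam124a and Pkhd1, the fibrocystin gene, were the other named genes, with WT values of 2029 to 5000 bp and PA values of 0 to 2657 bp. The window of Lrrc69 overlaps that of Otud6b, 1126 bp away. Over the whole gene Pkhd1 was higher in PA, at 7790 and 6586 bp in WT and 12983 and 9550 bp in PA. Among these genes Hgf and Cyp3a44 thus had no covered base of the 5000 bp window in either PA liver. Over its whole gene Cyp3a44 still had 7102 and 10045 bp in PA, against 14583 and 16792 bp in WT. Near-identical Cyp3a and Mup copies share sequence, so reads and peaks may be assigned to the wrong copy there.

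**Figure D2:**
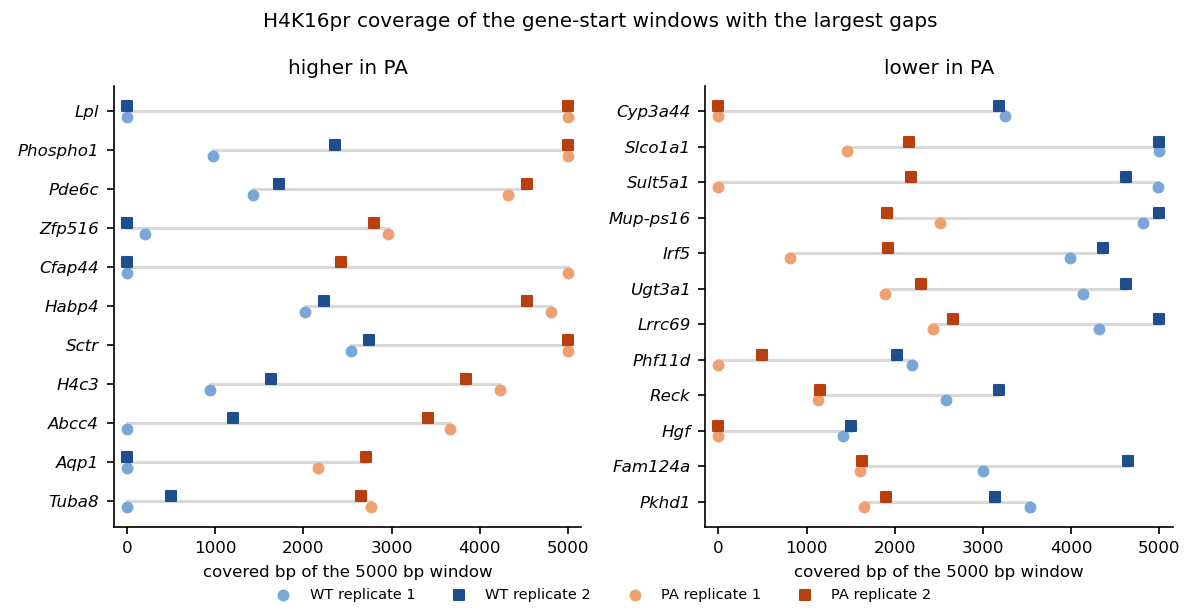
Each point is the H4K16pr coverage, in bp of the 5000 bp window, of 1 liver at 1 gene, for the 11 named genes that were higher in PA and the 12 that were lower. Blue points (WT) lie left of orange points (PA) in every gene of the left panel and right of them in every gene of the right panel. The points of Lpl lie at 0 and at 5000 bp.

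**Figure D3:**
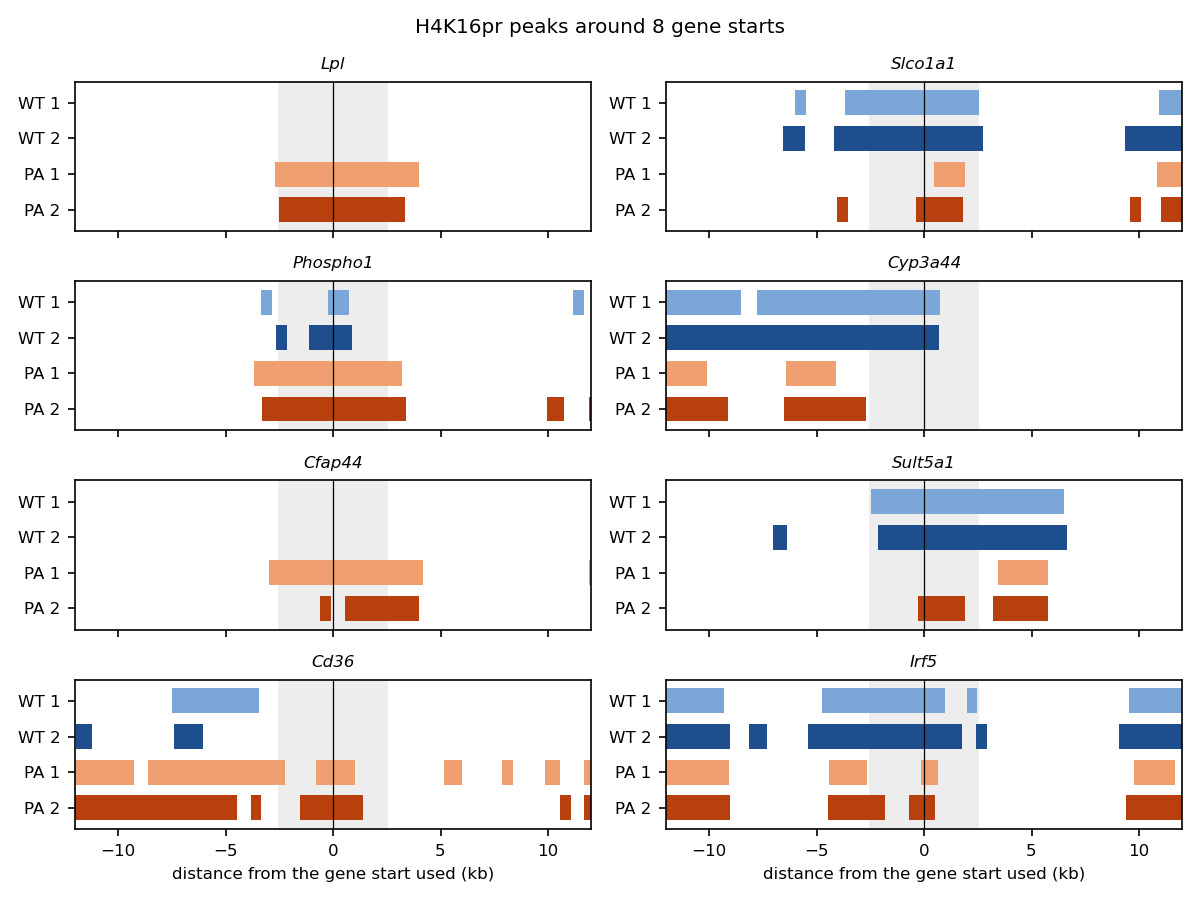
Horizontal bars are H4K16pr peaks within 12 kb of the gene start used (vertical line) in each of the 4 livers, with distance in kb along the chromosome, so that genes on the minus strand run to the left, and the 5000 bp window shaded. At Lpl and Cfap44 bars are drawn in the shaded window for the PA livers alone. At Cfap44 the peak of PA replicate 1 spans the start, while those of PA replicate 2 lie on either side of it. At Cyp3a44 the WT peaks reach the start while the PA peaks end short of it.

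Genes of propionate and branched-chain amino acid metabolism were read as lists, chosen with earlier results in view and given as counts without a test of their own. Over all tested genes 11.9% were higher and 0.624% lower. Of 18 genes of propionate and methylmalonate metabolism 2 were higher and none lower, with a median difference of 335 bp, below the 428 bp of all tested genes. These were Mmadhc, of cobalamin processing, at 1041 and 1107 bp in WT and 1736 and 1744 bp in PA, and Aldh6a1, the methylmalonate semialdehyde dehydrogenase gene, at 2554 and 2775 bp against 4368 and 3480 bp. Pccb, of the second subunit of the carboxylase, had 3538 and 4040 bp in WT and 4161 and 4212 bp in PA. Mmut, the methylmalonyl-CoA mutase gene, had 2691 and 2556 against 2831 and 2495 bp. The groups overlapped for Mmut. In branched-chain amino acid breakdown 4 of 16 genes were higher, namely Dbt, Ivd, Auh and Acadsb. Dbt, the E2 subunit of the branched-chain ketoacid dehydrogenase, had 2036 and 2935 bp in WT and 4047 and 4061 bp in PA. Of 18 genes of the tricarboxylic acid cycle 3 were higher, the isocitrate dehydrogenase genes Idh2, Idh3a and Idh3g. Idh2 had 2767 and 4050 bp in WT and 5000 bp in both PA livers. Of 10 urea cycle and ammonia genes Cps1, the carbamoyl-phosphate synthetase of the first step, was higher, at 3603 and 3946 bp against 5000 bp in both PA livers.

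Lipid genes were read in the same way, beside the 11.9% of all tested genes that were higher. Of 19 PPARA targets and ketogenesis genes 1 was higher (Vnn1), of 16 genes of mitochondrial fatty acid oxidation 2 (Hadh and Etfa), of 16 of cholesterol synthesis 1 (Idi1), and of 16 of glycolysis and lipogenesis 1 (Pfkfb1). None was lower in these lists. In the list of lipoprotein lipase and apolipoproteins 3 of 18 were higher, which were Lpl, Cd36 and Apob. Apob, the apolipoprotein of very low density lipoprotein, had 3866 and 3963 bp in WT and 4694 and 4501 bp in PA. None of 12 gluconeogenesis genes passed the gap. Pck1, of the step from oxaloacetate, had 4131 and 5000 bp in WT and 5000 bp in both PA livers, and Creb1, a cAMP-responsive transcription factor gene, had 2369 and 2939 against 3499 and 2967 bp.

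The list with the most genes higher was xenobiotic metabolism and NRF2, at 9 of 22 with none lower and a median difference of 694 bp, against 11.9% higher and a median of 428 bp over all tested genes. It held Gsta2, a glutathione transferase gene, at 1508 and 3556 bp in WT and 5000 bp in both PA livers, and Gstp1 at 3439 and 3654 bp against 5000 and 4929 bp. Txnrd1, the thioredoxin reductase gene, had 3425 and 3728 against 4906 and 4635 bp. The others were Gsta1, Gstm3, Cyp1a1, Abcc4, Ugdh and Ephx1. Several had their lowest value in WT replicate 1, as Gsta1 with 0 bp in that liver and 1444 bp in WT replicate 2, against 1991 and 2595 bp in PA.

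Most of the list members that were lower belonged to the sex-biased liver genes. Of 16 male-biased genes 3 were lower and none higher, against 0.624% lower and 11.9% higher of all tested genes. Beside Slco1a1 these were Hsd3b5, a steroid dehydrogenase gene, at 1422 and 3573 bp in WT and 0 and 500 bp in PA, and Cyp7b1, the oxysterol hydroxylase gene, at 2971 and 3541 bp against 2411 and 2283 bp. Other male-biased genes did not separate the genotypes, such as Mup20 at 1717 and 1851 against 1675 and 1736 bp. Of 16 female-biased genes 3 were lower and 2 higher, beside the same 0.624% and 11.9% of all tested genes. Beside Cyp3a44 the lower ones were Cyp3a16, at 1168 and 1547 bp in WT and none in PA, and Sult3a1, at 1742 and 4393 against 0 and 692 bp. In both of them each PA liver was below each WT liver. The higher ones were Hao2, a hydroxyacid oxidase gene, at 823 and 2237 against 4069 and 4177 bp, and Sult2a1, at 0 and 1673 against 3236 and 2217 bp. Male-biased and female-biased genes therefore both contained lower members in these female livers. Of 15 genes of the growth hormone, STAT5 and IGF1 axis 1 was higher, which was Jak2, beside the same 11.9%.

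In bile acid synthesis and transport 3 of 14 genes were higher and 2 lower, against 11.9% higher and 0.624% lower of all tested genes. Abcb11, the canalicular bile salt export pump gene, had 3634 and 3599 bp in WT and 4440 and 4251 bp in PA. Nr0b2, which encodes the repressor SHP, had 3372 and 3498 against 4340 and 4233 bp, and Abcb4, the phosphatidylcholine floppase gene, had 3436 and 3432 against 4357 and 4118 bp. The lower ones were Slco1a1 and Cyp7b1. Of 27 writers, erasers and readers of lysine acylation 1 was higher, the deacetylase gene Hdac3, at 2028 and 1924 bp in WT and 3412 and 2805 bp in PA. In the other lists, beside the same 11.9%, the genes that were higher were 3 of 15 acute phase and complement genes (Saa2, Fgg and Apcs), 2 of 16 clock genes (Arntl and Ciart), 2 of 16 cell cycle genes (Ccne2 and Cdkn1a), 1 of 16 oxidative phosphorylation genes (Ndufs1), and none of 15 integrated stress response genes or 16 hepatocyte identity factors.

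Markers of liver cell types were read beside these genes, and beside the 11.9% higher and 0.624% lower of all tested genes. Hepatocyte markers were widely covered in every liver, with 5000 bp at Ttr and Serpina1a in all 4, and 1 of 8 was higher (Cps1). Their summed coverage was 33906 and 37817 bp in WT and 38383 and 36261 bp in PA, so the groups overlapped. Of 8 Kupffer cell markers Clec4f, Adgre1, Vsig4, Timd4, Cd5l and Marco had no covered base in any liver. The summed coverage was 989 and 949 bp in WT and 1303 and 2389 bp in PA. It rested on Cd68, at 297 and 949 bp in WT and 1303 and 2389 bp in PA. Csf1r went the other way, with 692 bp in WT replicate 1 alone. Of 8 cholangiocyte markers Krt7, Krt19, Epcam and Cftr had no covered base in any liver. Sox9 had 1830 and 2295 bp in WT and 3217 and 2609 bp in PA, and Pkhd1 was lower at its start and higher over its whole gene. Muc1 had 959 and 1110 bp in WT and 1057 and 626 bp in PA, and Spp1 had 1273 bp in WT replicate 2 alone. The cholangiocyte markers summed to 6323 and 7813 bp in WT and 5927 and 5137 bp in PA. Of 8 lymphocyte markers 7 had none, and of 8 stellate cell markers 5 had none. The stellate markers Col3a1 and Dcn were covered in WT replicate 2 alone, at 613 and 813 bp. Reln had 500 and 645 bp in WT and 989 and 762 bp in PA. Sinusoidal endothelial markers summed to 12225 and 17399 bp in WT and 14204 and 21681 bp in PA, so the groups overlapped. Lyve1 was higher among them, at 2923 and 3184 against 4499 and 4355 bp. Among all 12495 tested genes the mean was higher in PA for 10575 and lower for 1562. Of the 8 endothelial markers it was higher for 6 and lower for 1. That was Fcgr2b, at 3017 and 4131 bp in WT and 0 and 4350 bp in PA. The part of these cells in the differences was not tested.

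The regions were then compared with the other marks mapped in the series, each with 2 WT and 2 PA libraries. H4K5ac, H4K5pr, H4K12ac and H4K12pr carry the same preparation labels as H4K16pr, so these comparisons share WT and PA livers and are given side by side, without a test. H4K16ac, H4K16bu, H3K9ac and H3K27ac come from preparations labelled A. Of the 3803 PA-only regions 40.1% and 41.0% overlapped a peak of H4K5pr in the WT libraries, and 86.8% and 87.3% in the PA libraries. For H4K16ac the shares were 19.5% and 7.91% in WT and 54.1% and 49.4% in PA. For H3K9ac, on another histone, they were 41.7% and 40.2% in WT and 60.0% and 55.6% in PA. For each of the 8 marks both PA shares were above both WT shares, and the difference of means ran from 16.9 percentage points for H3K9ac to 46.5 for H4K5pr. The regions were chosen for a peak in PA livers, some of them the livers of these libraries, and the lists of the other marks also covered more in PA on average, from 1.05-fold for H3K9ac to 1.80-fold for H4K16ac. At the 24748 regions listed in all 4 livers the shares were 98.5% and 98.9% in WT and 99.4% in both PA libraries for H4K5pr, 85.5% and 73.7% against 94.3% and 92.7% for H4K16ac, and 95.2% and 94.4% against 94.6% and 95.3% for H3K9ac. Many PA-only H4K16pr regions were listed for another mark in WT, and 198 of them for no other mark in any of 16 WT libraries. Of those 198, 130 were listed in at least 8 of the 16 PA libraries of other marks, and 1 PA-only region was listed in no other library at all.

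WT-only regions showed the opposite order for 7 of the 8 marks. They were chosen for a peak in both WT livers and none in either PA liver, some of them the livers of these libraries. The choice itself therefore favours this order. H4K5pr overlapped 74.1% and 71.3% of the 741 in WT and 50.3% and 54.7% in PA. H4K16bu overlapped 69.6% and 56.4% in WT and 18.6% and 43.0% in PA. H4K16ac was the exception, with 35.8% and 13.9% in WT and 36.3% and 27.1% in PA, so that the groups overlapped. The H4K16ac lists covered 1.80-fold more in PA on average. No other mark was listed in any of 16 PA libraries at 58 WT-only regions, and at 43 of these at least 8 of 16 WT libraries were. The region near Nkx1-1 and the WT-only region inside Cmah were listed in all 16 WT libraries of other marks and in no PA library.

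**Figure D4:**
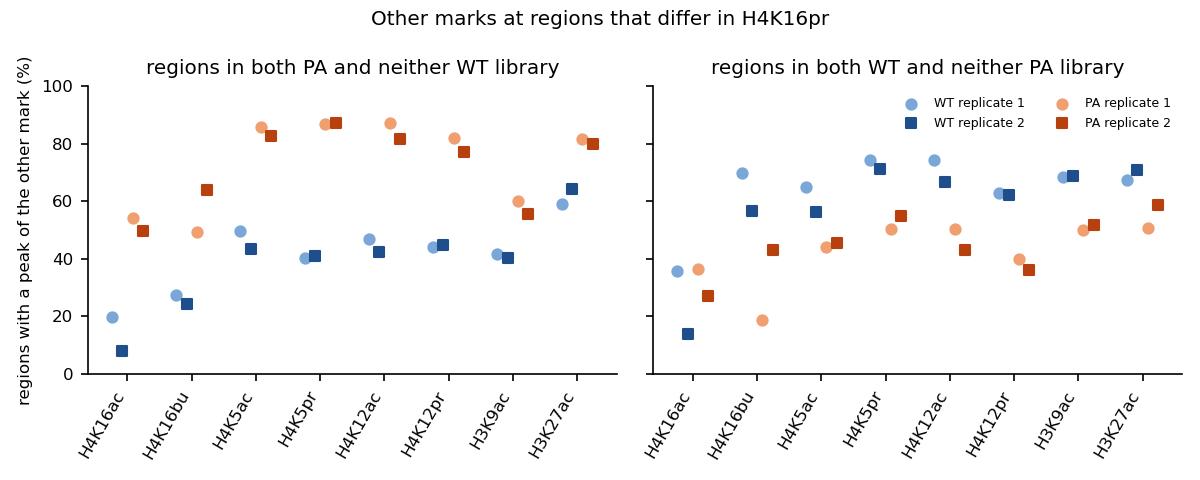
Points give the percentage of PA-only (left) and WT-only (right) H4K16pr regions that overlapped a peak of another mark, with 1 point for each library of that mark. At PA-only regions both PA libraries lie above both WT libraries for all 8 marks. At WT-only regions they lie below for all except H4K16ac.

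At single genes the marks did not all move together. At Lpl, H4K5ac, H4K5pr and H4K12ac covered 0 bp in both WT livers and 5000 bp in both PA livers, as H4K16pr did, while H3K9ac already covered 2948 and 2257 bp in WT and 4395 and 3740 bp in PA. Cfap44 had at most 223 bp of H4K5pr in WT and 5000 bp in both PA livers, and H3K27ac at 0 bp in WT and 5000 and 3211 bp in PA. At Cd36, H3K9ac covered 2813 and 2753 bp in WT and 2802 and 2665 bp in PA, and H3K27ac 2281 and 3061 against 2543 and 2597 bp. H4K16pr in the Cd36 window was listed in PA alone while H3K9ac and H3K27ac overlapped between genotypes. Aqp1 had H3K9ac at 4576 and 4220 bp in WT and 3519 and 4150 bp in PA, and H4K16ac at 0 bp in WT and 0 and 888 bp in PA. In the Aqp1 window H3K9ac was thus listed in WT livers where H4K16pr was not. At Cyp3a44, H3K9ac, H4K12pr and H4K16bu covered 2483 to 3386 bp in WT and none in PA. At Slco1a1, H3K9ac covered 4203 and 4368 bp in WT and 500 and 937 bp in PA. At both genes H3K9ac and H4K16pr were lower in each PA liver than in each WT liver. Hgf had H3K9ac at 3674 and 3812 bp in WT and 4252 and 3695 bp in PA, while H4K16pr in its window was listed in WT alone. At Phospho1, H3K9ac was 0 bp in PA replicate 1 and 4258 bp in PA replicate 2, so its negative difference rests on 1 library.

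**Figure D5:**
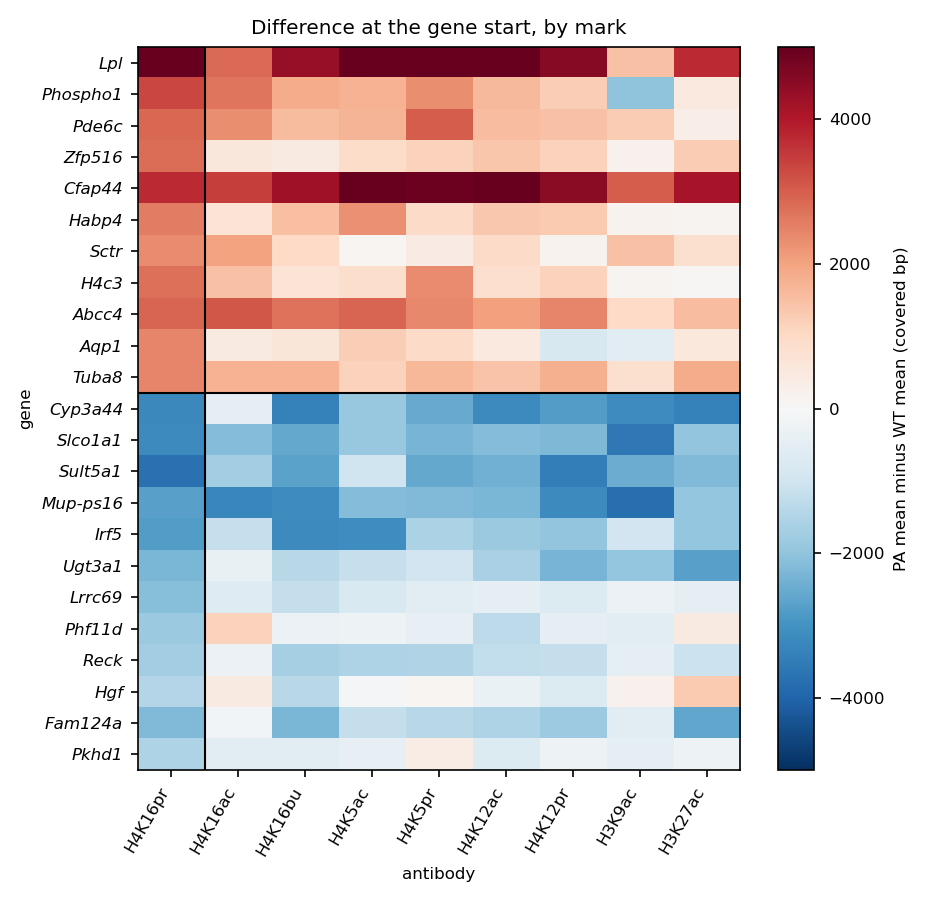
Colours give the difference of PA and WT means in covered bp of the 5000 bp window at the 23 named genes (11 higher above the line, 12 lower below it) for H4K16pr and the 8 other marks. Lpl and Cfap44 are dark red across most marks, Aqp1 and Zfp516 are paler outside H4K16pr, and Hgf and Phf11d are near white or red for several marks.

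Whether the genotype difference of H4K16pr differed from that of another mark was tested over all genes. With the within-preparation difference of H4K16pr minus H4K5ac, H4K5pr, H4K12ac or H4K12pr, limma called no gene in either direction (0.0%). The smallest adjusted p-values were 0.718, 0.860, 0.557 and 0.602. At an unadjusted p under 0.05 the counts were 551 higher and 290 lower against H4K5ac, 459 and 285 against H4K5pr, 1002 and 181 against H4K12ac, and 888 and 206 against H4K12pr. Against H4K16ac and H4K16bu, which differ from H4K16pr in preparation as well as in mark, no gene was called (0.0%), with smallest adjusted p-values of 0.117 and 0.109. The unadjusted counts were 139 higher and 668 lower against H4K16ac, and 457 and 72 against H4K16bu. Without WT replicate 2, 190 genes were called higher against H4K16bu, and without WT replicate 1, 321 were called lower against H4K16ac. Covered length alone gave PA over WT ratios of 1.28 for H4K16pr, 1.31 for H4K5pr, 1.80 for H4K16ac and 1.09 for H4K16bu.

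An in-house H4K16pr antibody was used in the WT preparations, and no PA library of it is analysed here. Its peaks had Jaccard indices of 0.479 with the Thermo peaks in WT replicate 1 and 0.138 in WT replicate 2, where the in-house list was small. Of the covered bases of the in-house lists 85.4% and 91.0% were also covered by the Thermo peaks. At Lpl the in-house lists covered 500 and 0 bp, and at Slco1a1 4471 and 0 bp.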

How the data were processed

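Peaks of 4 H4K16pr (Thermo) libraries, 2 WT and 2 PA livers, were compared, with 34 further ChIP libraries for context, and the 8 inputs were not used. Per the file contents, the deposited values are chromosome, start and end in base pairs of each peak, on GRCm38 (mm10), with no score, count or p-value and no peak under 500 bp. HOMER 4.10, bedtools 2.31.0, Bowtie2 2.5.1, cutadapt 3.5, R 4.1.2 and SAMtools 1.17 are named, without roles, in the submitters' processing notes. The sources used here do not give caller settings, use of the inputs or read depth. Peaks were called per sample, as each sample has a list of its own. A peak list turns signal into presence, so a deeper library can list more and wider peaks.

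Groups came from the labels of genotype, antibody and replicate. The labels call the replicates biological and do not say how the livers of preparations A and B relate. A total of 2 peaks on chromosome Y were dropped. Regions were merged over the 4 libraries, presence was an overlap of at least 1 bp, and covered bp were summed per region or window. Gene starts came from RefSeq GRCm38.p6, with 17274 of 21631 protein-coding genes having a listed start. For the other 4357 genes the end with more coverage over all libraries stood for the start, and of several listed starts the one with most coverage was used. Genes covered in 2 or more of 4 livers entered limma 3.58.1 (R 4.3.3, trend), with Benjamini-Hochberg adjustment and a threshold of 0.05. The fits were tested on simulated data. Python 3.11.15, numpy 2.4.6, pandas 2.3.3 and matplotlib 3.10.9 did the rest.

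Named genes were Pcca, the 12 largest gaps each way without predicted genes, genes called by limma and 2 to 4 members of described lists by smallest unadjusted p. Members beyond these were added where they bear on a list, and 1 gene among the 12 higher and 1 list member are not reported here. Named regions were the 8 longest or largest gaps of each kind. The members, the 28 gene lists and the named genes were chosen with earlier results of these data known. Alternatives were other windows, whole genes, quantile normalization, equal numbers of peaks, other peak filters and gaps, no filter, no trend, a shared spread, a replicate block and leaving out each library.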

Additional observations from a re-analysis of the deposited data

How the results depend on the processing

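With 2 livers a genotype, 1 library decides many counts, and read depth is unknown. Leaving out a library also loosens the rule. Counts by the gap then cannot fall, and counts of PA-only and WT-only regions tend to rise. PA-only and WT-only regions: equal numbers of peaks gave 2309 PA-only, peaks of at least 1000 bp gave 324 WT-only, and leaving out a library gave 5078 (WT replicate 1) to 14775 (PA replicate 2) and 1529 (PA replicate 2) to 5186 (WT replicate 1). Genes higher and lower by the gap: 2308 higher with 5 kb on each side, 326 and 46 with 1 kb, 2629 and 162 over whole genes, 449 and 305 with quantile normalization, 320 and 18 with a gap of 1000 bp, 5643 and 319 with any gap, and 1830 to 5393 and 126 to 377 without 1 library (lowest higher and highest lower without WT replicate 1, the reverse without WT replicate 2). Limma gene calls: 2 higher and 1 lower with quantile normalization, 17 and 12 without the filter, 54 and 6 with the spread of 36 libraries, 35 and 5 with that of 20, and 0 to 352 and 0 to 3 without 1 library, the most without WT replicate 2. Regions wider and narrower: 1763 and 1715 with quantile normalization, 1805 and 114 with 1000 bp, 10410 and 1150 with any gap, and 5041 (without WT replicate 1) to 11592 (without WT replicate 2) and 561 (without WT replicate 2) to 2099 (without WT replicate 1). The replicate block gave 240 and 20 region calls and 0 and 0 gene calls, but the numbers do not pair the livers (r = -0.13 over regions, -0.04 over genes). A crossed pairing, chosen after seeing the data, gave 0 and 0 calls for both. Differences from H4K16ac ranged from 0 to 29 higher and 0 to 321 lower without 1 library, and from H4K16bu from 0 to 190 and 0 to 18. Mean peak width (log2 ratio) ranged from -0.0146, reversed without WT replicate 1, to 0.2434 without WT replicate 2, the share at gene ends reversed with equal numbers of peaks (0.57 points), and Pkhd1 reversed over its whole gene (4079 bp). The causes were not tested. Peak number has no value with equal numbers of peaks. The 24 named genes, apart from Pcca, were picked for non-overlapping values in these same libraries. Leaving 1 library out therefore cannot reverse them, and the other settings read the same peaks, so their kept direction is not independent support. Of 383 alternatives for the 24 named genes 381 kept direction, 1 reversed, 1 was at 0 (Pcca with 1 kb on each side), and 22 passed an adjusted p of 0.05.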

Other observations

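Gene families were counted after their values were seen, so the counts describe these libraries and carry no test. Of 56 tested genes of the H1, H2A, H2B, H3 and H4 histones 13 were higher in PA by a gap of at least 500 bp and none lower, with a median difference of 715 bp. Over all tested genes 11.9% were higher, 0.624% were lower and the median difference was 428 bp. H4c6 had 1062 and 2057 bp in WT and 4345 and 3476 bp in PA, and H1f5 had 1447 and 2922 against 3577 and 4220 bp. Histone genes lie in clusters whose windows and copies can share peaks, so they are not independent. Of 18 tested glutathione transferase genes 7 were higher and none lower, with a median difference of 1096 bp. Gstm6 had 1033 and 1008 bp in WT and 3179 and 3005 bp in PA, and Gstm7 had 3814 and 2717 against 4898 and 4504 bp.

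Of 15 tested sulfotransferase genes 7 were higher and 2 lower, beside the same 11.9% and 0.624% of all tested genes. The higher ones included 5 genes of the Sult2a group on chromosome 7, whose enzymes sulfate steroids and bile acids. Sult2a7 had no covered base in WT and 2007 and 2569 bp in PA, and Sult2a3 had 500 and 1556 bp in WT and 3661 and 3828 bp in PA. Sult1e1, the estrogen sulfotransferase gene, had 901 and 3050 against 3989 and 4966 bp. Sult3a1 and Sult5a1 were the lower ones. Among 7 tested Cyp3a genes Cyp3a44 and Cyp3a16 were lower, while Cyp3a11 on the same chromosome had 4066 and 5000 bp in WT and 5000 bp in both PA livers. Among 15 tested genes of the major urinary protein cluster 4 were lower (Mup12, Mup15, Mup17 and Mup-ps16) and 1 higher (Mup6), with a median difference of -390 bp against 428 bp over all tested genes. Mup3 at the edge of the cluster was at 5000 bp in all 4 livers. Copies within these families are close in sequence, and the treatment of reads with several matches was not given by the sources.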
